A study of Mus musculus with 6 samples.

Results

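The collagen genes were followed across FNDC4-binding preadipocytes. They were taken as every transcript cluster annotated to exactly 1 gene symbol of the form Col, a number, the letter a and a number, and the cluster with the highest mean intensity stood for a gene. This gave 44 collagen genes, from 46 clusters, of 19938 genes with a cluster of their own. All 44 were kept, with no filter on low values.

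HBC (high binding cells) and LBC (low binding cells) were sorted from the same stromal vascular fraction (SVF) cells, an immortal line made from inguinal fat pads of male mice of strain 129SVE. Both populations were exposed to FcsFNDC4, the Fc-tagged soluble form of FNDC4, and gated by flow cytometry on a strong or a weak signal of bound protein, in repeated rounds up to passage 20. RNA of each population was hybridized, as 3 technical replicates (HBC) and 3 technical replicates (LBC), to Affymetrix mouse gene arrays, and the study used the comparison to search for receptors of FNDC4. Each group was 1 population of 1 immortalized line, so p-values measure the spread between arrays and not between independent sorts. The arrays were grouped by their titles, since for LBC replicates 2 and 3 the source name gives HBC while the title and phenotype give LBC.

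Collagens are matrix proteins built of 3 chains wound into a triple helix. Fibrillar collagens form the cables of connective tissue, type IV collagens form the sheet of the basement membrane, and type VI collagen forms beaded filaments around cells. Fibril-associated collagens (FACIT) decorate the fibrils, and multiplexins sit where basement membranes meet the surrounding matrix. In white fat, fat cells are wrapped in basement membrane, and their stromal precursors make much of the fibrillar matrix.

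Collagen genes were higher in HBC or close to their LBC level, and none was lower by the criteria used. A gene was called where its adjusted p lay under 0.05 and its fold change on the log2(intensity + 16) scale exceeded 1.5. Of the 44, 8 were called higher, which is 18.2%, against 2.54% of all 19938 genes called higher, and 0 were called lower, against 1.13% of all genes. In either direction, 3.67% of all genes were called. At an adjusted p under 0.05 with no fold threshold, 15 were higher, beside 6.93% of all genes, and 0 were lower, beside 11.4%. All 3 HBC arrays lay above all 3 LBC arrays for 18 collagen genes and below them for 0, while 10.1% of all genes lay above and 25.1% below. The median log2 fold change over the 44 was 0.01, and over all genes it was -0.07. In a bulk culture, more cells that express a gene and more RNA per cell cannot be told apart.

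**Figure D1:**
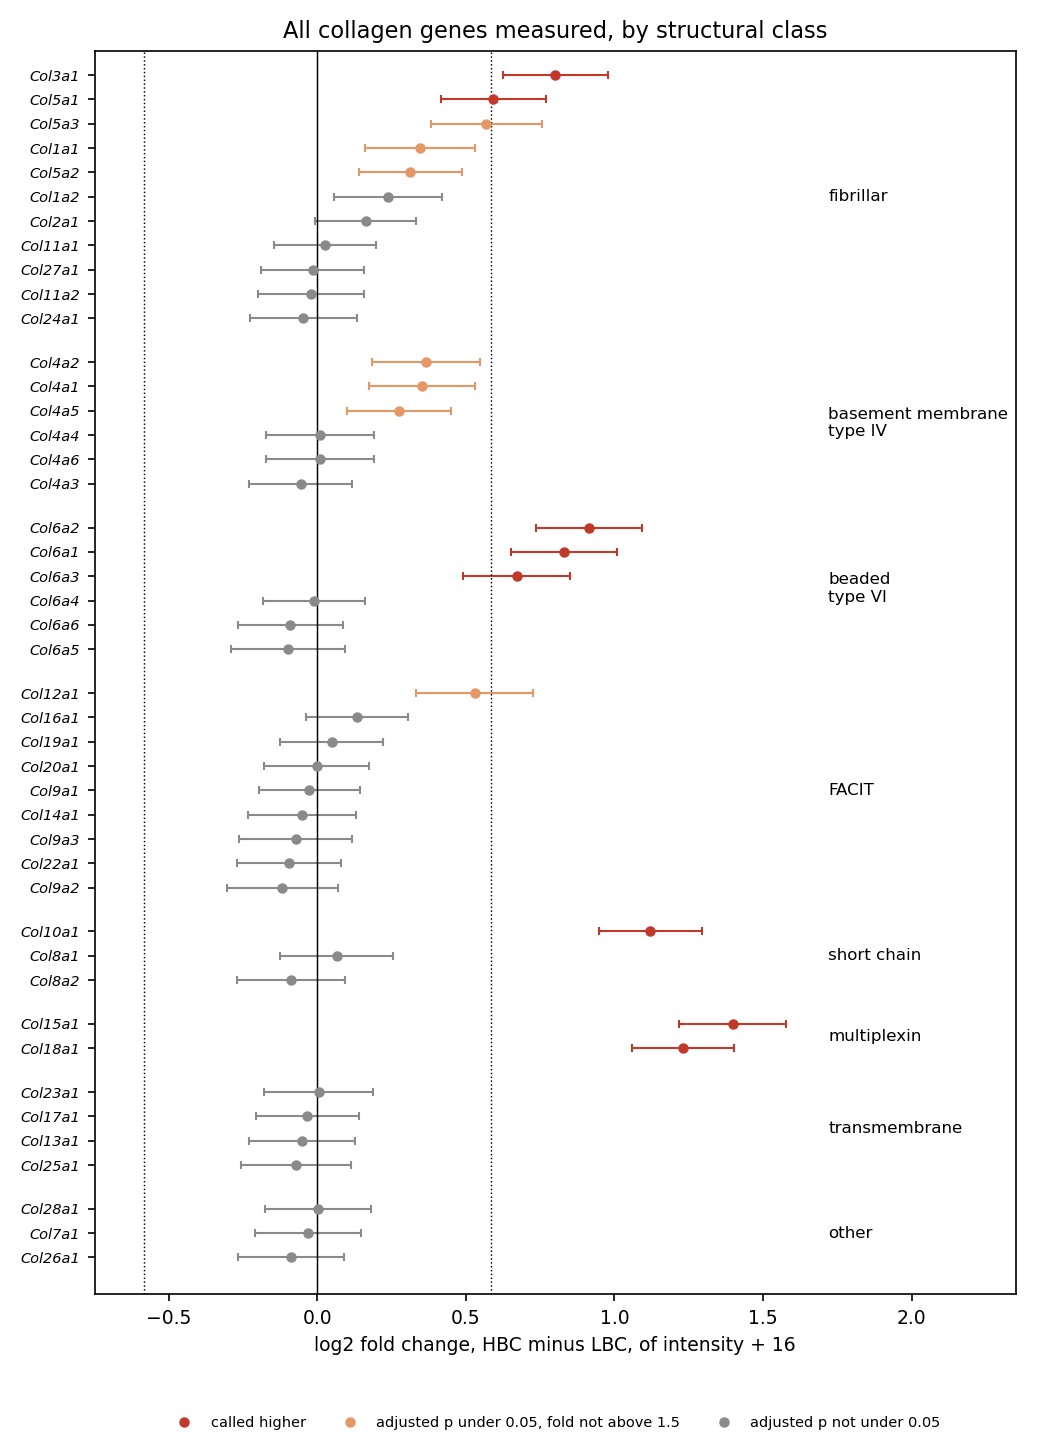
The 44 collagen genes by their log2 fold change in HBC over LBC (from intensity + 16), grouped by structural class, with bars for the 95% interval from limma over 3 arrays per group and dotted lines at a 1.5-fold difference. Red marks the 8 genes called higher, 7 in orange had an adjusted p under 0.05 without the fold, and the 29 in grey did not reach that p.

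Both multiplexins rose in HBC. Col15a1 encodes the chain of type XV collagen, a proteoglycan of the basement membrane zone. It read 655, 723 and 659.7 on the HBC arrays, against 249.7, 268 and 226 on the LBC arrays. The groups did not overlap, and the ratio of means was 2.74 (log2 fold change of 1.40 with a standard error of 0.0878, adjusted p = 1.0e-13). Col18a1 encodes the chain of type XVIII collagen, whose C-terminal fragment is endostatin. Its intensities were 402, 408 and 375 in HBC and 157, 165 and 155 in LBC. The ratio was 2.48 (log2 fold change of 1.23 with a standard error of 0.0841, adjusted p = 7.8e-13), again with every HBC array above every LBC array.

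The 3 chains of classical type VI collagen rose together. Col6a1 averaged 3983 ± 271 in HBC and 2232 ± 113 in LBC (SD, n = 3 arrays each). On single arrays it read 3894, 4288 and 3768 in HBC and 2108, 2259.6 and 2328 in LBC, so that the lowest HBC array stood well above the highest LBC array. Col6a2, the partner chain of the same heterotrimer, read 3552, 3846 and 3471 in HBC and 1803, 1878 and 2072 in LBC. Col6a3, the long chain from which endotrophin is cleaved, read 3772, 3886 and 3519 in HBC and 2154, 2290.0 and 2573 in LBC. The log2 fold changes were 0.83 for Col6a1 (adjusted p = 9.2e-09), 0.91 for Col6a2 (adjusted p = 1.5e-09) and 0.67 for Col6a3 (adjusted p = 8.4e-07). The intervals of the 3 chains overlapped, and differences between them were not tested. Col6a4, Col6a5 and Col6a6, which encode alternatives to the third chain, were not called, with log2 fold changes from -0.10 to -0.01. Col6a5 and Col6a6 each had a further cluster, with values of -0.08 and -0.09 that lay close to those of the clusters used.

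Col10a1 rose as well, while the other short-chain genes did not pass the test. Type X collagen is known from hypertrophic cartilage. Col10a1 read 187, 179.8 and 179.6 in HBC, against 75.9, 79.6 and 70.2 in LBC (ratio 2.42, log2 fold change of 1.12 with a standard error of 0.0844, adjusted p = 7.8e-12). The LBC mean of 75.2 was inside the spread of olfactory receptor genes, which serve as a reference for dim signal (10th to 90th percentile of 13.9 to 86.3 in LBC over 1015 genes). The size of this ratio is therefore uncertain, and its log2 fold change ran from 0.89 with an added constant of 50 to 1.27 with an added constant of 1. Of 6 chondrocyte markers, such as Acan and Comp, 0 were called, beside 3.67% of all genes. In both groups, 5 lay at or below the 90th percentile of olfactory receptor genes. Their summed intensity was 327 to 363 in HBC and 358 to 389 in LBC. Among 4 osteoblast markers, Alpl was called higher, at 278 in HBC and 177 in LBC. The other 3 were not called and had negative log2 fold changes, of -0.06 for Sp7, -0.10 for Dmp1 and -0.22 for Ibsp. The summed intensity, Alpl included, was 581 to 609.8 in HBC and 513 to 543 in LBC. Whether such cells play a part in the Col10a1 result was not tested. Col8a1, a chain of type VIII collagen, read 1988, 2069.8 and 1732 in HBC and 1686, 1781 and 2070.4 in LBC, with overlapping groups. Its partner Col8a2 had a log2 fold change of -0.09 (95% interval -0.27 to 0.09).

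**Figure D2:**
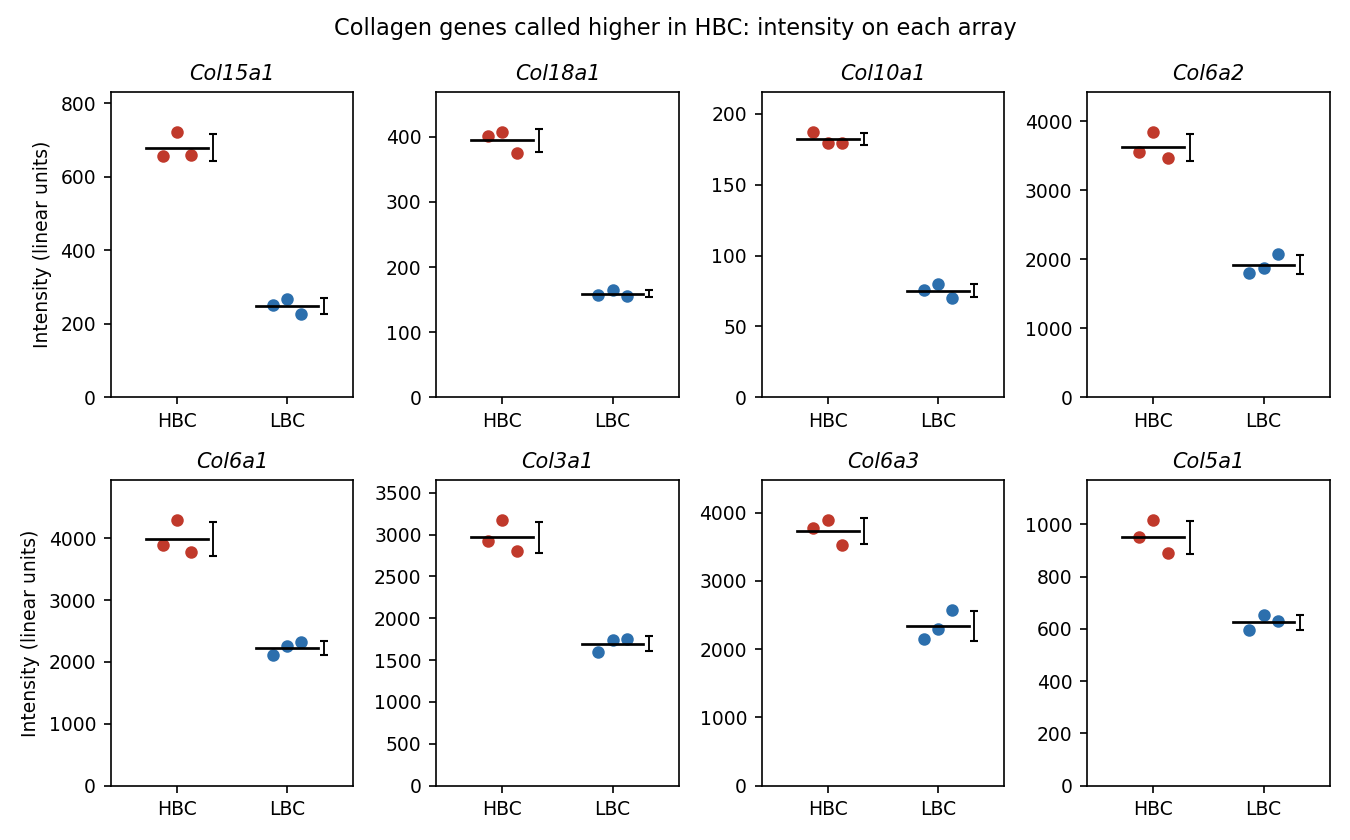
Intensity on each array (linear units, axes from 0) of the 8 collagen genes called higher, with HBC in red on the left, LBC in blue on the right, lines at the means of 3 arrays and bars for the SD. In each panel the 3 HBC arrays lie above the 3 LBC arrays, for example with a ratio of means of 2.74 for Col15a1 and 1.52 for Col5a1.

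Among 11 fibrillar collagen genes, Col3a1 and Col5a1 rose and 9 were not called, where 2.54% of all genes were called higher. Col3a1, whose product forms the fine reticular fibres, read 2928, 3170.1 and 2808 in HBC and 1593, 1737 and 1758 in LBC. The groups were clearly apart (ratio 1.75, log2 fold change of 0.80 with a standard error of 0.0863, adjusted p = 1.8e-08). Col5a1, a chain that nucleates fibrils, read 950.4, 1016 and 889.5 in HBC and 595, 654 and 629 in LBC. With a log2 fold change of 0.59 (adjusted p = 4.6e-06), it lay just above the fold threshold, whereas Col5a3 lay just below it at 0.57 (adjusted p = 2.0e-05), with 277, 297 and 292 in HBC and 196, 210.4 and 164 in LBC. The call of Col5a1 was lost without HBC replicate 2 (0.54) or LBC replicate 1 (0.56), and Col5a3 was called without HBC replicate 1 (0.60), LBC replicate 1 (0.59) or LBC replicate 2 (0.64). The calls of these 2 genes therefore differ by less than the effect of 1 array.

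The chains of type I collagen, the main collagen of connective tissue, differed less between the populations. Col1a1 read 4776, 5058 and 4237 in HBC and 3421, 3695 and 3939 in LBC (log2 fold change of 0.35, adjusted p = 0.0059). Col1a2 read 5513, 5924 and 5039 in HBC and 4313, 4696 and 4945 in LBC (log2 fold change of 0.24, adjusted p = 0.061). With 1 array left out, the adjusted p of Col1a2 ran from 0.018 (without LBC replicate 3) to 0.30 (without HBC replicate 2). That of Col1a1 ran from 0.0025 (without HBC replicate 3) to 0.0605 (without HBC replicate 2). Which chain fell under 0.05 therefore depended on single arrays. The groups did not overlap for either chain, although the lowest HBC array came close to the highest LBC array. Col5a2 had a log2 fold change of 0.31 (adjusted p = 0.0086). Col2a1, the cartilage fibril gene, had one of 0.16 (95% interval -0.01 to 0.33), and Col11a1, Col11a2, Col24a1 and Col27a1 lay between -0.05 and 0.03.

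Of the 6 type IV genes, 0 were called, beside 3.67% of all genes. At that share, a count of 0 among 6 genes carries little information. Col4a1 and Col4a2 encode the chains of the common basement membrane heterotrimer and lie head to head on chromosome 8. Col4a1 averaged 941 ± 59.4 in HBC and 733 ± 48.8 in LBC (SD, n = 3 arrays each). Col4a2 averaged 774 ± 58.8 in HBC and 597 ± 45.5 in LBC (SD, n = 3 arrays each). Their log2 fold changes were 0.35 (adjusted p = 0.0037) and 0.37 (adjusted p = 0.0032), below the fold threshold. Col4a5 had a value of 0.27 (adjusted p = 0.022). Its neighbour Col4a6 read 58.6 in HBC and 58.3 in LBC and was the 1 collagen gene within the range of olfactory receptor genes in both groups. Col4a3 and Col4a4, the head-to-head pair known from the kidney filter, had log2 fold changes of -0.06 (95% interval -0.23 to 0.12) and 0.01 (95% interval -0.17 to 0.19).

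None of the 9 FACIT genes was called, beside 3.67% of all genes, but Col12a1 came close. Type XII collagen binds the surface of type I fibrils. Col12a1 read 1009.8, 982 and 950.0 in HBC and 595, 639 and 807 in LBC, with LBC replicate 3 apart from the other LBC arrays. The log2 fold change was 0.53 (adjusted p = 0.00012), and without LBC replicate 3 it was 0.66 and passed both criteria. Col16a1 read 365, 391 and 384 in HBC and 335, 354 and 345 in LBC (log2 fold change of 0.13, adjusted p = 0.29). The other 7, from Col9a2 at -0.12 to Col19a1 at 0.05, showed overlapping groups.

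The 4 transmembrane collagen genes (Col13a1, Col17a1, Col23a1 and Col25a1) had log2 fold changes from -0.07 to 0.00. Col7a1, which encodes the anchoring fibrils of skin, had one of -0.03, Col26a1 one of -0.09 and Col28a1 one of 0.00. For 29 collagen genes the adjusted p was 0.05 or more. Their 95% intervals reached no lower than -0.31 (Col9a2) and no higher than 0.42 (Col1a2). A 1.5-fold difference in either direction, in intensity with the added constant, lay outside all of them. These intervals measure the spread between arrays and not between independent sorts, and the added constant shrinks differences at low signal. Col4a6, at 58.6 in HBC and 58.3 in LBC, was as dim as olfactory receptor genes. Its interval therefore cannot exclude a 1.5-fold difference in RNA.

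The sequence before the start of 5 called genes is shown because these genes moved together and 3 of them lie close to each other. Of the 44 genes, 35 had an entry in the RefSeq promoter table (GRCm38.p6), all 8 called ones among them. The 250 bases before the start are printed where they lie outside the annotated extent of the gene, which held for the upstream start of Col18a1 (chr10:77166531-77166780, minus strand), Col6a1 (chr10:76726045-76726294, minus strand), Col6a2 (chr10:76623631-76623880, minus strand), Col10a1 (chr10:34389731-34389980, plus strand, inside the extent of Nt5dc1) and Col3a1 (chr1:45311288-45311537, plus strand). Capitals mark matches, on either strand, to the TATA box TATAAA, to the motif CCAAT bound by NF-Y, to the GC box GGGCGG or to the interferon response element written as GAAA followed by 2 bases of any kind and then a further GAAA, none of which overlapped here.
Col18a1: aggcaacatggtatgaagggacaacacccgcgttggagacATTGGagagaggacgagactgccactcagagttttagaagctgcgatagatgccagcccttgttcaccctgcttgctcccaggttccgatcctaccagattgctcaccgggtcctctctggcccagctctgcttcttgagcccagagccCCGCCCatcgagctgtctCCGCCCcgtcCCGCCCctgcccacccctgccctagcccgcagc
Col6a1: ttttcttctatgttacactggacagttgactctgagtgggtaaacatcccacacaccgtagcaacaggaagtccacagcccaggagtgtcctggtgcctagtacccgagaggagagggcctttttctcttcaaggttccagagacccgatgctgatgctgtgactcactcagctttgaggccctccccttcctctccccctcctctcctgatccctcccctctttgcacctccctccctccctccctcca
Col6a2: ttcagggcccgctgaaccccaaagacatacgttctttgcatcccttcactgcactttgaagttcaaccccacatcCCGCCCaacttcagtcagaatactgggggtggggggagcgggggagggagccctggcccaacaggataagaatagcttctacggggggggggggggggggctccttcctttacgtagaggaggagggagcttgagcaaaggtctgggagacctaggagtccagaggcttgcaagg
Col10a1: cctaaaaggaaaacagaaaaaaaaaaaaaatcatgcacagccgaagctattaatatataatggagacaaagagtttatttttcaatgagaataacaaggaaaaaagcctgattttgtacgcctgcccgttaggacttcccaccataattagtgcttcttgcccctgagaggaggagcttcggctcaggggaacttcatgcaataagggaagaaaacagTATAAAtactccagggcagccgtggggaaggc
Col3a1: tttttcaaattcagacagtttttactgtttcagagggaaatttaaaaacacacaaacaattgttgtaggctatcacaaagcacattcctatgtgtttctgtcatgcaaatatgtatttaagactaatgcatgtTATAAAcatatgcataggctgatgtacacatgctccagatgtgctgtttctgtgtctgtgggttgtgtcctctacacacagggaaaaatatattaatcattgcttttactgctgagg
TATAAA was found in Col10a1, at 32 to 27 bases before the start, and in Col3a1, at 117 to 112 bases. It occurred in 12.4% of the 32851 windows of this length in the table. Col18a1 held 3 GC boxes between 61 and 28 bases before the start and 1 CCAAT match, and Col6a2 held 1 GC box. Both genes have a further annotated start whose window is not printed, with 0 GC boxes for Col18a1 and 3 for Col6a2. GC boxes occurred in 32.7% of all windows and CCAAT in 33.8%. Over the 38 windows of collagen genes in the table, GC boxes were in 22, CCAAT in 13 and TATAAA in 5. The Col6a1 window held none of the 4 motifs. The interferon element, present in 2.98% of all windows, was in 0 of these 38 windows. A match is a run of letters and not a shown binding site, and its absence concerns this window alone.

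Col6a2, Col6a1 and Col18a1 are near neighbours on chromosome 10, and the genes between and beside them were not called. In RefSeq order, Spatc1l had a log2 fold change of 0.11, Ftcd of -0.19, Col6a2 of 0.91, Col6a1 of 0.83, Pcbp3 of -0.37, Slc19a1 of -0.23, Col18a1 of 1.23, Pofut2 of 0.24 (95% interval 0.06 to 0.43, adjusted p = 0.055) and Adarb1 of -0.21. Pcbp3, which encodes an RNA-binding protein, read 267 in HBC and 348 in LBC (adjusted p = 0.0029), and Slc19a1, the gene of a folate carrier, read 584 in HBC and 688 in LBC (adjusted p = 0.075). Neither was called, and of the 9 genes of this stretch the 3 collagen genes were the ones called. Col10a1 lies within the extent of Nt5dc1, which was not called either (log2 fold change of -0.16, adjusted p = 0.24). On chromosome 1, Col3a1 stands between Gulp1, the gene of an adaptor for the uptake of dying cells, which was called higher at 0.60 (adjusted p = 4.2e-06), and Col5a2 at 0.31. Also on chromosome 1, Ackr3, the gene of an atypical chemokine receptor, was called higher at 0.76 (adjusted p = 4.0e-08), with Cops8 at -0.10 between it and Col6a3. The genes beside Col15a1 were not called, with -0.01 for Galnt12 and -0.19 for Tgfbr1.

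**Figure D3:**
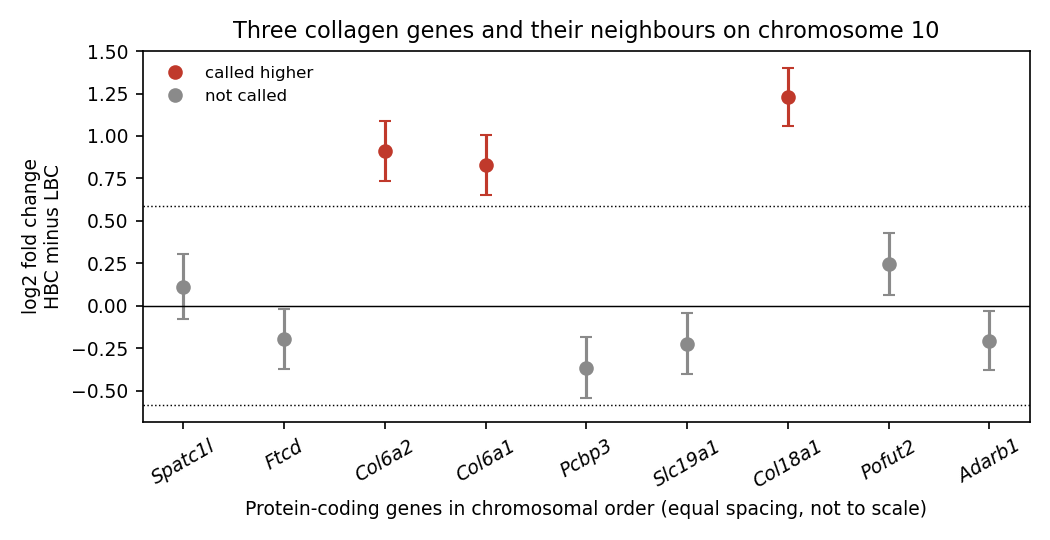
Log2 fold change in HBC over LBC (from intensity + 16) of 9 protein-coding genes in their order on chromosome 10, equally spaced, with bars for the 95% interval from limma over 3 arrays per group and dotted lines at a 1.5-fold difference. Col6a2, Col6a1 and Col18a1, in red, were called higher, and their neighbours lay between -0.37 and 0.24.

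Genes that make and handle collagen moved in part with the collagen genes. Of 60 such genes measured, 6 were called higher and 2 lower, 10% and 3.33%, beside 2.54% and 1.13% of all genes. Their median log2 fold change was 0.11. Among 19 genes of folding and hydroxylation, 3 were called higher and 0 lower. With no fold threshold, 10 of the 19 had an adjusted p under 0.05 with a positive value, beside 6.93% of all genes. Another 2 of the 19 had a negative one, beside 11.4% of all genes. These were the prolyl 3-hydroxylase gene P3h2 (-0.42, adjusted p = 0.00096) and Tmem38b (-0.39, adjusted p = 0.0017), both with every HBC array below every LBC array. Plod1, a lysyl hydroxylase, averaged 3223 ± 247 in HBC and 1756 ± 143 in LBC (SD, n = 3 arrays each, log2 fold change of 0.87, adjusted p = 7.0e-09). P4ha2, a catalytic subunit of prolyl 4-hydroxylase, averaged 952 ± 42.2 in HBC and 619 ± 42.4 in LBC (SD, n = 3 arrays each, log2 fold change of 0.61, adjusted p = 2.7e-06). Plod2, the lysyl hydroxylase of the collagen telopeptides, had a log2 fold change of 0.59 (adjusted p = 1.6e-05). The calls of P4ha2 and Plod2 were lost without HBC replicate 2 (0.58 and 0.53) or LBC replicate 1 (0.56 and 0.54), and that of Plod2 also without LBC replicate 2 (0.55) and under the methods' test (adjusted p = 0.072). Both were lost with an added constant of 50 (0.58 for each). Serpinh1, the collagen chaperone HSP47, had a value of 0.28 (adjusted p = 0.029) and was not called.

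In the other lists, few genes were called, and over all genes the share called was 3.67%. Creb3l1, a transcription factor that drives type I collagen in bone, averaged 1232 ± 65.6 in HBC and 656 ± 35.3 in LBC (SD, n = 3 arrays each, log2 fold change of 0.89, adjusted p = 1.7e-09). Itga11, the alpha chain of a collagen-binding integrin, averaged 279 ± 17.9 in HBC and 137 ± 10.5 in LBC (SD, n = 3 arrays each, log2 fold change of 0.95, adjusted p = 7.4e-10). It was the 1 of 9 collagen receptor genes called. Itga1, also in this list, was not called, with a log2 fold change of 0.42 (adjusted p = 0.00035) and every HBC array above every LBC array. Ctsk, a collagen-cleaving protease, averaged 731 ± 52.4 in HBC and 439.9 ± 13.5 in LBC (SD, n = 3 arrays each, log2 fold change of 0.71, adjusted p = 1.7e-07). The other 6 genes of degradation were not called. Of these, Mmp9 had a log2 fold change of -0.48 (adjusted p = 7.7e-05), with every HBC array below every LBC array. Mmp14 had one of 0.27 (adjusted p = 0.033). Tll1, a procollagen C-proteinase, fell to 102 ± 2.22 in HBC, against 207 ± 24.7 in LBC (SD, n = 3 arrays each, log2 fold change of -0.91, adjusted p = 2.4e-09). Its relative Bmp1 had a log2 fold change of 0.20 (adjusted p = 0.12). Ccn2, the gene of connective tissue growth factor, averaged 2606 ± 188 in HBC and 3934 ± 474 in LBC (SD, n = 3 arrays each, log2 fold change of -0.59, adjusted p = 1.8e-05), and this call was lost without HBC replicate 3 (-0.53) or LBC replicate 3 (-0.49) and after median centring (-0.54) or cyclic loess (-0.58), with an added constant of 50 (-0.58) and under the methods' test (adjusted p = 0.072). Of 5 cross-linking genes, 0 were called, with Lox, the lysyl oxidase, at 0.55 (adjusted p = 2.7e-05).

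**Figure D4:**
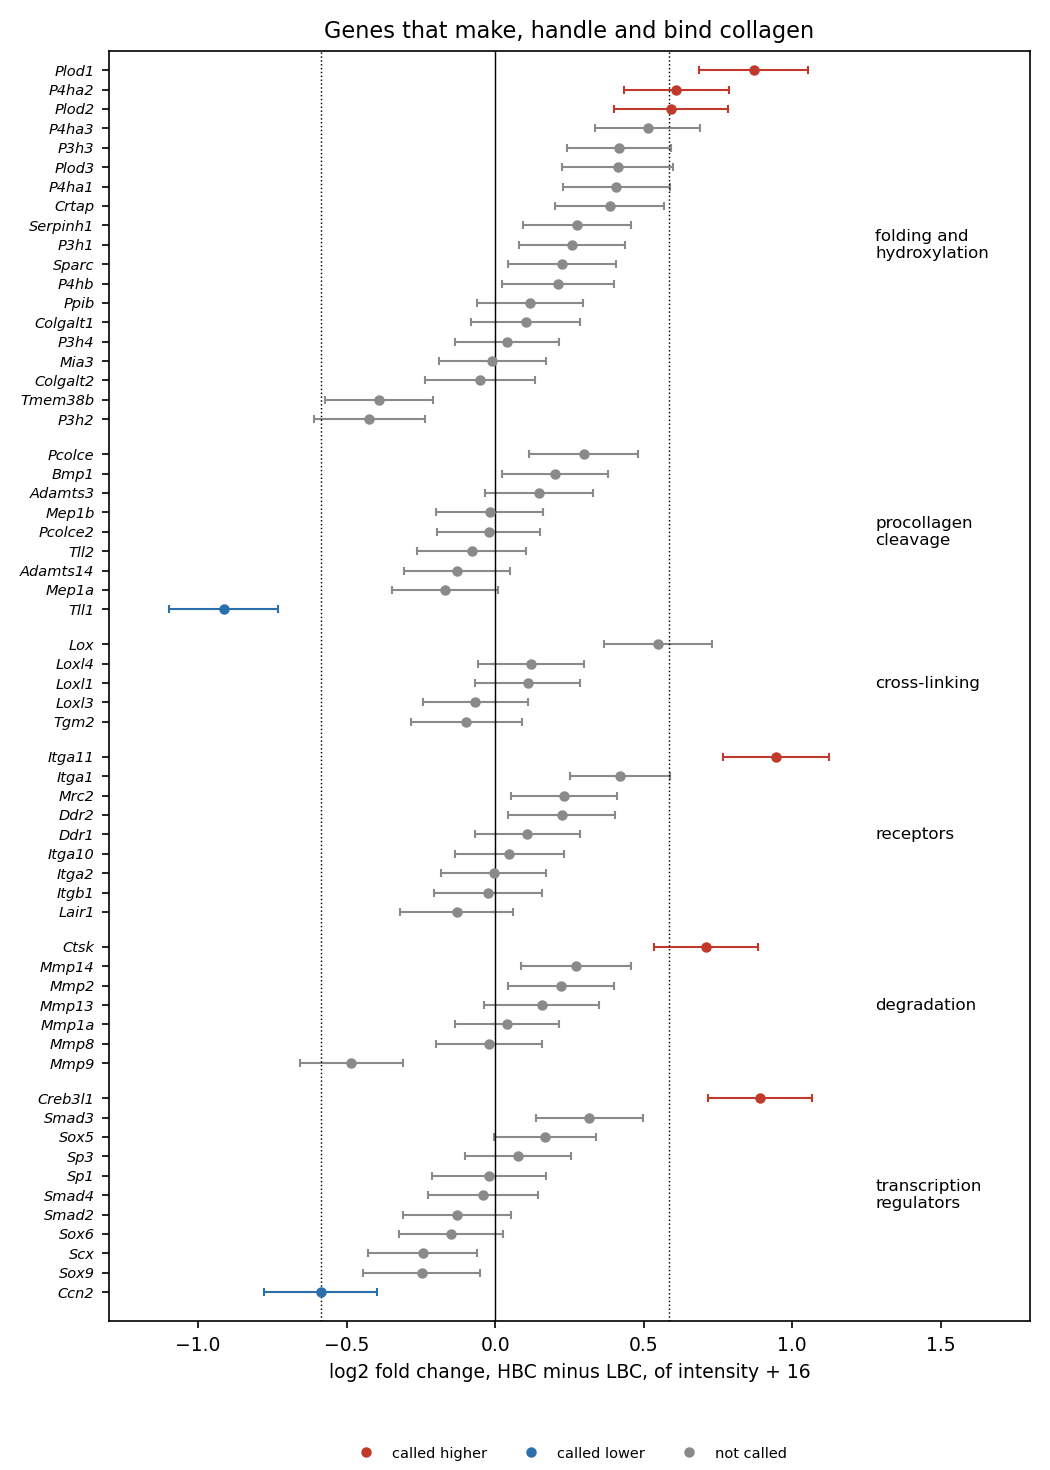
Log2 fold change in HBC over LBC (from intensity + 16) of 60 genes that make, process, bind or degrade collagen or regulate its transcription, with bars for the 95% interval from limma over 3 arrays per group and dotted lines at a 1.5-fold difference. Red marks the 6 genes called higher, blue the 2 called lower and grey the 52 that were not called.

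The order of the arrays was much the same in HBC, but mixed in LBC, across the collagen genes with an adjusted p under 0.05. Among these 15 genes, HBC replicate 2 was the highest HBC array for 12 and HBC replicate 3 the lowest for 13, while LBC replicate 1 was the lowest LBC array for 10 and LBC replicate 3 the highest for 9 and the lowest for 5. Over all 44 collagen genes a different measure was taken, the median log2 deviation from the group mean. It did not follow this order, with -0.02 on HBC replicate 2, 0.01 on HBC replicate 3, 0.03 on LBC replicate 1 and -0.06 on LBC replicate 3. Median intensity over all clusters ran from 122 to 132 in HBC and from 131 to 134.6 in LBC. Of 8 adipose stromal markers measured, 0 were called, beside 3.67% of all genes, and they lay on both sides. At an adjusted p under 0.05, Pdgfrb (log2 fold change of 0.53), Pdgfra (0.37) and Pparg (0.33) were above their LBC level and Cd34 (-0.45) was below it. Dpp4, a marker of early progenitors, was as dim as olfactory receptor genes in both groups. Over 42 markers of other cell types, Alpl was the 1 called (2.38%, beside 3.67% of all genes). Without the fold threshold, the adipocyte marker Retn (0.58) also had a positive value with an adjusted p under 0.05, and the mural markers Tagln (-0.56) and Rgs5 (-0.49) and the chondrocyte markers Acan (-0.31) and Matn3 (-0.26) had negative ones. Their part in the collagen results was not tested.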

How the data were processed

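Gene expression was measured on 6 Affymetrix arrays, 3 of HBC and 3 of LBC. The authors made the deposited intensity values, on a linear scale, with Affymetrix Expression Console per the labels. How probes were summarized and normalized, and by which version, was not given in the sources used here, and precision is limited by how many arrays there were. The methods name a later array version than the one whose annotation matches the row identifiers. The annotation gave 1 symbol to 21789 of 35556 transcript clusters, and clusters with several (1621) or no symbols (12146) were left out. Where a gene had several clusters, that with the highest mean intensity was used. HBC and LBC were compared as log2(intensity + 16) by lmFit and eBayes of limma 3.58.1 (R 4.3.3), adjusted by the Benjamini-Hochberg method over 19938 genes. The prior had 24.9 degrees of freedom against 4 residual ones, so the exponent of a very small p carries little information. The fit was tested on simulated data.

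The collagen genes, their classes and the lists of handling genes and markers came from textbook knowledge, chosen with earlier results of these data known. Named are all called collagen genes, those with an adjusted p under 0.05, chain partners, and up to 4 called genes per list. Fkbp10, Adamts2, Loxl2, Gp6 and Runx2 had no cluster of their own. Alternatives were 3 scalings, added constants of 1 and 50, the study's minimum intensity of 100 in both groups or in at least 1, the methods' t-test, 2 variance priors, 2 choices of cluster, a replicate block, other fold thresholds, and leaving out each array.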

Additional observations from a re-analysis of the deposited data

How the results depend on the processing

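Under the alternatives, the count of collagen genes called stayed within 1.5 times of 8 except at the fold thresholds, with 15 without one and 3 above 2-fold (Col15a1, Col18a1 and Col10a1). No collagen gene was called lower in any setting. The minimum of 100 in both groups removed Col10a1, which was called in the 18 other alternatives that kept it. Leaving out an array gave 7 to 9 collagen genes. Col15a1, Col18a1, Col3a1 and the 3 type VI genes were called in all 19 alternatives without a changed fold threshold. The call of Col5a1 was also lost with an added constant of 50 (0.57). Col5a3 was called after quantile normalization, cyclic loess, median centring and with an added constant of 1, from 0.59 to 0.65, and Col12a1 after cyclic loess (0.60). Over all 21 named collagen genes, 3 values lost the call, 9 gained it and 381 did neither, and the cause was not tested. These counts leave out an adjusted p that crossed 0.05 in a gene below the fold threshold. Col4a5 rose to 0.16 without HBC replicate 1, and Col5a2 to 0.0795 without HBC replicate 2. Under the methods' t-test, the 7 genes with an adjusted p under 0.05 without the fold ran from 0.060 (Col5a3) to 0.13 (Col1a1). The counts over all genes (732) moved to 3655 without a fold threshold and 280 above 2-fold. Collagen-handling genes called (8) moved to 23 without a fold threshold, 0 above 2-fold and 5 with an added constant of 50, and ranged from 6 to 8 when an array was left out. Arrays with the same replicate number did not deviate alike, with correlations between their deviations of -0.10, -0.24 and -0.50. For arrays with different numbers these ran from -0.47 (HBC replicate 2 with LBC replicate 1) to 0.49 (HBC replicate 3 with LBC replicate 1). Whether the arrays were paired in another order was not tested. With the replicate block, 732 genes, 8 collagen genes and 8 handling genes were called. The methods' t-test at an unadjusted p under 0.05 gave 17 collagen genes and 4931 of all genes with no fold threshold, and 9 and 1383 after Benjamini-Hochberg adjustment. Dim signal limits the ratio of Col10a1.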
